A study of Homo sapiens with 12 samples.

Results

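The miRNA repertoires of 2 human cell lines that both carry intact DICER were compared: HCT116, a line from a colorectal carcinoma, and HEK293T, a line from embryonic kidney. DICER is the RNase III enzyme that cuts hairpin precursors into miRNA duplexes. In both groups the labels describe the cells as rescued with DICER WT. They do not say how the cells' own DICER had been removed, whether a line is 1 clone, or how much DICER the rescue made, and age, sex and treatment are not part of them. Each line was also rescued with a form that lacks the dsRBD, the domain that binds double-stranded RNA, and with a form called AA. All 6 groups have 2 libraries, made by AQ-seq, a small RNA protocol designed to reduce the bias of adapter ligation. Members of the comparison are the miRNA names listed in the files of both lines, 1494 of the 1971 names listed in either. Of these, 844 passed the low-count filter, which asks for about 10 reads in each of 2 libraries of any group, and 650 did not. The 650 hold between 0.0326% and 0.0431% of the miRNA reads of a WT library, and 29 members had no read in any of the 4 WT libraries.

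The WT libraries hold 4498886 and 4056722 miRNA reads in HCT116 and 2791656 and 3552613 in HEK293T. Levels are given as CPM, counts scaled to a common library size with TMM, a factor from a trimmed mean of the names' ratios between libraries. Where a name had 0 reads, up to 3 could have been missed by counting error alone, which is 0.755 to 0.941 CPM per library. Replicates 1 and 2 are not labelled as separate cultures, so a p measures only the spread between these libraries, which may be technical. Line and any difference in the preparation of the 2 lines cannot be told apart.

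A miRNA works inside an Argonaute protein and finds its targets mainly through its seed, bases 2 to 8, so that names with the same seed share most targets. A hairpin can give a miRNA from its 5p arm and one from its 3p arm, with different seeds, and one of them is usually kept while the other is lost. Many hairpins lie in clusters that are transcribed together, and several clusters exist in more than 1 copy in the genome. The miR-17-92 cluster is a well known growth-promoting cluster that MYC activates, miR-21 and miR-31 are abundant in many carcinomas, and the miR-200 family is the classic miRNA marker of epithelial cells.

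Some names set the 2 repertoires apart, and their sequences are given from RefSeq on GRCh38.p14, where 1313 of the 1494 names had an entry. Capitals mark the seed. The first set is the most abundant names of HCT116, of which miR-222-3p and miR-221-3p share a seed.
miR-21-5p: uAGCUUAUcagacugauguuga
miR-222-3p: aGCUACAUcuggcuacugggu
miR-221-3p: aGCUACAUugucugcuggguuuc
miR-31-5p: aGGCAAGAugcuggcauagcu
miR-29a-3p: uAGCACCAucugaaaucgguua

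The second set is the most abundant names of HEK293T. MiR-92a-3p and miR-25-3p share a seed and differ at 4 of 22 bases, and miR-17-5p and miR-20a-5p share another and differ at 2 of 23.
miR-92a-3p: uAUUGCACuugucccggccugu
miR-25-3p: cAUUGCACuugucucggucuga
miR-17-5p: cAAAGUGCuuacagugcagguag
miR-20a-5p: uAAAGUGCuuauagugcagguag
miR-19b-3p: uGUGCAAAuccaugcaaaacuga
miR-16-5p: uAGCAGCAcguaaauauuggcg
miR-10a-5p: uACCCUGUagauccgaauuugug

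The third set comes from a pair of loci that are copies of each other, MIR100, MIRLET7A2 and MIR125B1 on chromosome 11 and MIR99A, MIRLET7C and MIR125B2 on chromosome 21. MiR-100-5p and miR-99a-5p differ by A16U and let-7a-5p and let-7c-5p by A19G, counted from the 5′ end, with the base of the first name of each pair first. MiR-125b-5p is the same from both loci, while its 3p partners miR-125b-1-3p and miR-125b-2-3p differ at 17 of 22 bases and so tell the loci apart.
miR-100-5p: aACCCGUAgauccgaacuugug
miR-99a-5p: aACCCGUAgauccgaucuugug
let-7a-5p: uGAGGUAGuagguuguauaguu
let-7c-5p: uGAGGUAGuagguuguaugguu
miR-125b-5p: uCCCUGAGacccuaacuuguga
miR-125b-1-3p: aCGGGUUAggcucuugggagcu
miR-125b-2-3p: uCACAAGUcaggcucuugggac

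The fourth set is the arms of 2 hairpins whose main arm differs between the lines, MIR590 and MIR625. The 5p arm of MIR590 has the seed of miR-21-5p.
miR-590-5p: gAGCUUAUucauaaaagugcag
miR-590-3p: uAAUUUUAuguauaagcuagu
miR-625-5p: aGGGGGAAaguucuauagucc
miR-625-3p: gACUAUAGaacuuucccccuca

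One miRNA dominated HCT116 and none did so in HEK293T. The most abundant name, miR-21-5p, took 30.3% and 31.7% of the member reads in HCT116, and the most abundant one in HEK293T, miR-92a-3p, took 14.0% and 11.4%. The 10 most abundant names together took 58.1% and 59.8% in HCT116 and 50.8% and 49.9% in HEK293T. The effective number of names, the exponential of the Shannon entropy of the shares, was 39.2 and 36.2 in HCT116 and 59.1 and 60.2 in HEK293T. In contrast, the number of names at 10 CPM or more, here scaled by the total of member reads without TMM factors, was close, 488 and 473 in HCT116 and 466 and 468 in HEK293T. Of the reads of names with a stated arm, 5p names took 64.8% and 65.1% in HCT116 and 57.2% and 59.7% in HEK293T. For each of these 5 measures the 2 lines did not overlap, and the exact permutation test, two-sided, gave p = 0.33, the smallest that 2 against 2 libraries allow. Names at 100 CPM or more, scaled by the same totals, numbered 249 and 241 in HCT116 and 246 and 231 in HEK293T. For this measure the lines overlapped (exact permutation p = 0.67).

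Per spike-in read, HCT116 also held more miRNA. The libraries carry reads of 30 added RNAs, and the number of miRNA reads per spike-in read was 274 and 367 in HCT116 and 82.6 and 80.9 in HEK293T, 3.92-fold more in HCT116 on average, with no overlap between the lines (exact permutation p = 0.33, n = 2 each). How much was added, and at which step, is not stated in the labels, and the ratio stands for miRNA content if that amount was equal. Compared among themselves, 18 of the 30 spike-ins differed between the lines (edgeR adjusted p under 0.05), by −1.09 to 1.38 on the log2 scale. TMM and spike-in scaling therefore ask different questions: TMM values are relative to that trimmed mean, and spike-in values are relative to the added RNA. The latter lie lower by 1.63 on the log2 scale in HEK293T, since the median over all tested names was −0.39 with TMM and −2.02 with the spike-ins. It was −0.13 with library totals and 0.04 with upper-quartile factors.

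Most miRNAs differed between the lines. With edgeR's quasi-likelihood F test and Benjamini-Hochberg adjustment, 618 of the 844 tested names had an adjusted p under 0.05 (73.2%). Of these, 270 were higher in HEK293T (32.0% of those tested) and 348 lower (41.2%). The split depends on the scale: upper-quartile factors gave 337 higher and 293 lower, library totals 309 and 313, and the spike-ins 85 and 577, 78.4% called in all. Counts for a family are given on the TMM scale, and a family with most of its members called is no exception against these shares. The lists of families were drawn up with earlier results of these data known.

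**Figure D1:**
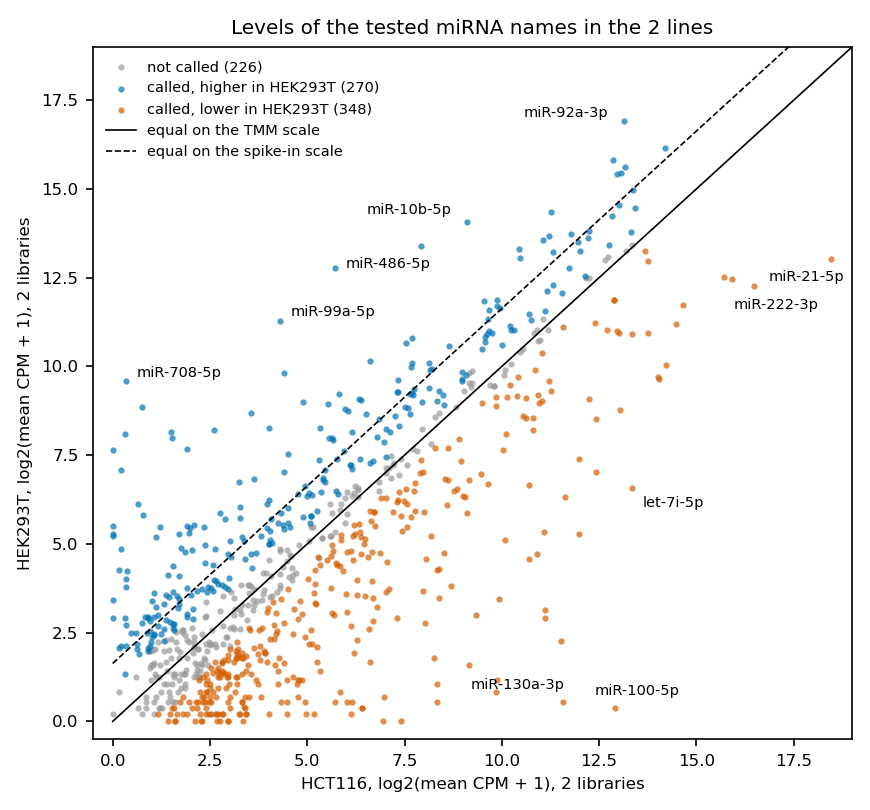
Mean level of each tested miRNA name in HCT116 (horizontal) and HEK293T (vertical), both as log2(mean CPM + 1) over 2 libraries, coloured by the edgeR call at adjusted p under 0.05 on the TMM scale. The full line marks equal levels on the TMM scale and the dashed line equal levels on the spike-in scale, 1.63 higher; 270 names are called higher and 348 lower in HEK293T, and miR-21-5p stands at the far right, miR-92a-3p at the top.

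HCT116 was rich in a small group of miRNAs that HEK293T held at a much lower level. Hairpin positions are on GRCh38, and hosts are genes of the same strand in GENCODE 29. MiR-21-5p (MIR21, chromosome 17, 59841266 to 59841337, exon of VMP1), which restrains PDCD4, was at 342858 and 384763 CPM in HCT116 and 6755 and 10083 CPM in HEK293T, 43.2-fold lower in HEK293T (log2 difference −5.43 ± 0.21, SE, adjusted p = 3.8e-16). Its 3p partner miR-21-3p was lower by nearly as much (−5.39 ± 0.22). MiR-222-3p and miR-221-3p, made from neighbouring hairpins (MIR222, chromosome X, 45747015 to 45747124, intron of MIR222HG) and known to repress the cell cycle inhibitor p27, came next. MiR-222-3p was at 89239.7 and 94651 CPM in HCT116 and 4633 and 5247 CPM in HEK293T (−4.22 ± 0.19, adjusted p = 3.3e-15). MiR-221-3p was at 51469 and 55078 CPM in HCT116 and 5178 and 6605 CPM in HEK293T (−3.18 ± 0.17). The 2 lines did not overlap for any of these names, and all 4 tested names of the 2 hairpins were lower in HEK293T, miR-221-5p by most (−6.23 ± 0.31).

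MiR-31-5p (MIR31, chromosome 9, 21512115 to 21512185, intron of MIR31HG), a miRNA often raised in colorectal tumours, was at 61074 and 61787 CPM in HCT116 and 5439 and 5796 CPM in HEK293T, 10.9-fold lower in HEK293T (log2 difference −3.45 ± 0.16, adjusted p = 8.1e-15). The hairpins of miR-24, miR-27 and miR-23 come from 2 clusters, and of their 11 tested names 10 were lower in HEK293T and none higher. MiR-24-3p was at 22773 and 23217 CPM in HCT116 and 2367 and 2315 CPM in HEK293T, and miR-27a-3p at 19454 and 18407 CPM in HCT116 and 1105 and 989 CPM in HEK293T (−4.18 ± 0.18). The cluster on chromosome 19 (MIR24-2, MIR27A and MIR23A) was lower in all 5 names that it alone makes, with log2 differences of −3.73 to −5.06. In the cluster on chromosome 9 (MIR23B, MIR27B and MIR24-1, intron of C9orf3) the range was wider, from −4.13 for miR-24-1-5p to 0.12 for miR-27b-5p, which was not called. The miR-29 family, which restrains collagen genes and DNA methyltransferases, had 6 of 7 names lower and 1 higher. MiR-29a-3p was at 21091 and 30867 CPM in HCT116 and 2712 and 4084 CPM in HEK293T, 7.64-fold lower (−2.93 ± 0.21). MiR-29c-3p, from the other cluster of the family, was the one that was higher (1.19 ± 0.20 on the TMM scale and −0.52 on the spike-in scale).

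HEK293T was rich in the miR-17-92 cluster and its copies. MiR-92a-3p, made from MIR92A1 in this cluster (chromosome 13, 91351314 to 91351391, exon of MIR17HG) and from MIR92A2 on chromosome X, was at 10365 and 7571 CPM in HCT116 and 122091 and 122879 CPM in HEK293T. That is 13.7-fold higher in HEK293T (log2 difference 3.77 ± 0.19, adjusted p = 2.0e-14), and it stayed higher on the spike-in scale (2.15). MiR-19b-3p was at 8523 and 9879 CPM in HCT116 and 49220.0 and 52177 CPM in HEK293T (2.46 ± 0.16), and miR-20a-5p at 7471 and 8599 CPM in HCT116 and 38418 and 48804 CPM in HEK293T (2.44 ± 0.18). MiR-25-3p, from the copy in an intron of MCM7, was at 8059 and 9038 CPM in HCT116 and 34887 and 55161 CPM in HEK293T (2.40 ± 0.19). No library of one line reached a library of the other for these 4 names. MiR-17-5p was 3.01-fold higher on the TMM scale (1.59 ± 0.16) but at −0.09 on the spike-in scale. Of the 21 tested names of the cluster and its copies, 16 were higher and 1, miR-19a-5p, was lower (−0.75 ± 0.24; not called with library totals, −0.48 (adjusted p = 0.123), or upper-quartile factors, −0.32 (adjusted p = 0.255)); the median difference was 1.59 on the TMM scale and −0.09 on the spike-in scale, where 6 were higher and 8 lower. Summed, these names stood at 66475 and 72552 CPM in HCT116 and 326684 and 374262 CPM in HEK293T, 5.04-fold more on average.

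Members of one cluster were not higher by the same amount. Within the chromosome 13 cluster itself, 10 tested names come from this locus alone, of which 7 were higher and 1 lower, and their differences ran from −0.75 for miR-19a-5p to 4.13 for miR-92a-1-5p. MiR-92a-1-5p, the partner strand of miR-92a-3p, was at 37.0 and 20.3 CPM in HCT116 and 333 and 677 CPM in HEK293T, far apart between the HEK293T libraries but above both HCT116 libraries. MiR-18a-5p was at 4154 and 4922 CPM in HCT116 and 5661 and 6292 CPM in HEK293T, a difference of 0.40 ± 0.17 (adjusted p = 0.0413) that is −1.29 on the spike-in scale. It did not pass without HCT116 replicate 1 (0.23 (adjusted p = 0.349)) or without either HEK293T replicate (0.41 (adjusted p = 0.0668) and 0.36 (adjusted p = 0.107)). In the MCM7 copy, all 6 tested names were higher on the TMM scale, from 0.40 for miR-93-3p to 2.77 for miR-25-5p, and miR-93-3p was at −1.24 on the spike-in scale. MiR-93-3p did not pass without HCT116 replicate 1 (0.41 (adjusted p = 0.149)), HCT116 replicate 2 (0.49 (adjusted p = 0.0775)) or HEK293T replicate 1 (0.14 (adjusted p = 0.562)).

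The miR-15 and miR-16 family, which represses cyclins and BCL2, was higher as well, in 12 of 13 tested names with none lower, and its median difference was 1.95 on the TMM scale and 0.27 on the spike-in scale. MiR-16-5p, made from MIR16-1 in an intron of DLEU2 and MIR16-2 in an intron of SMC4, was at 18197 and 19367 CPM in HCT116 and 66279 and 78528 CPM in HEK293T, 3.85-fold higher (1.95 ± 0.16, adjusted p = 1.9e-10). The arms that tell its loci apart, miR-16-1-3p (1.33 ± 0.19) and miR-16-2-3p (1.82 ± 0.19), were both higher on the TMM scale, and miR-16-1-3p was at −0.34 on the spike-in scale. The third copy, MIR195 and MIR497 in MIR497HG, differed most: miR-195-5p was at 92.6 and 101 CPM in HCT116 and 1019 and 1247 CPM in HEK293T (3.55 ± 0.20), and all 4 of its tested names were higher.

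MiRNAs of the HOX gene clusters, which mark position along the body axis, were higher in HEK293T in 9 of 10 tested names and lower in none, with a median difference of 2.28 on the TMM scale and 0.62 on the spike-in scale. MiR-10a-5p (MIR10A, chromosome 17, 48579838 to 48579947, exon of HOXB4) was at 7162 and 7715 CPM in HCT116 and 47501 and 66959.9 CPM in HEK293T, 7.69-fold higher (2.94 ± 0.18, adjusted p = 1.7e-12). MiR-10b-5p (MIR10B, chromosome 2, 176150303 to 176150412, intron of HOXD3) was at 546 and 550.5 CPM in HCT116 and 13167 and 21008 CPM in HEK293T, 31.2-fold higher (4.96 ± 0.22). The relative use of the pair thus differed too: miR-10a-5p exceeded miR-10b-5p in all 4 libraries, by far more in HCT116. MiR-196a-5p was at 739 and 739.6 CPM in HCT116 and 2850.3 and 4553 CPM in HEK293T (2.32 ± 0.23) and miR-196b-5p at 2544 and 2592 CPM in HCT116 and 4439.7 and 5658 CPM in HEK293T (0.98 ± 0.19), and neither overlapped between the lines. On the spike-in scale miR-196b-5p was at −0.70.

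**Figure D2:**
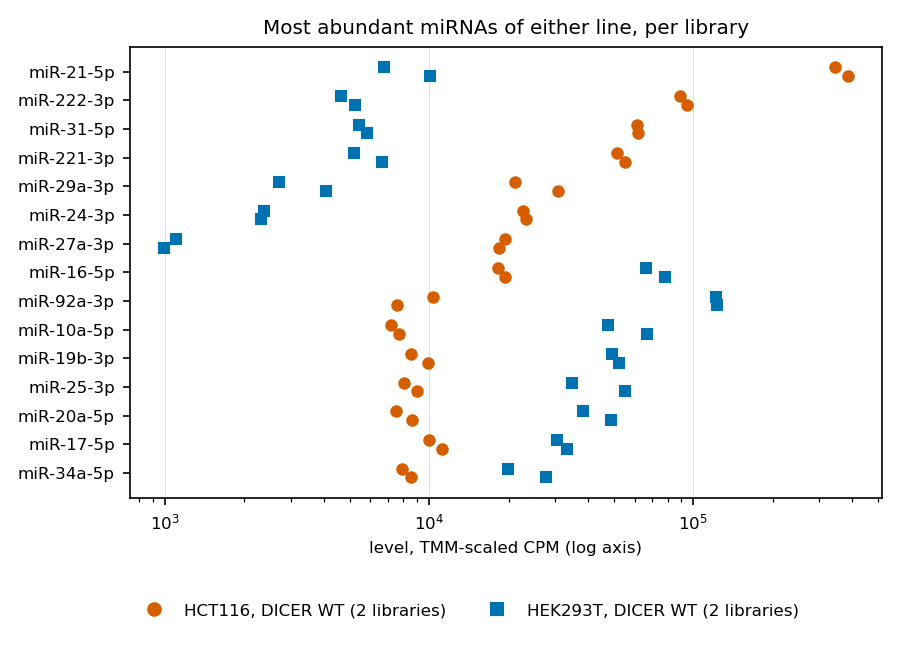
TMM-scaled CPM (log axis) of the 8 most abundant names of each line, 15 names in all since miR-16-5p is among both, with 1 point per WT library (circles HCT116, squares HEK293T, 2 libraries each). The circles and squares of a name do not mix for any of the 15: the first 7 names lie higher in HCT116 and the other 8 higher in HEK293T.

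MiR-34a-5p, a p53 target, was also abundant in both lines, at 7912 and 8528 CPM in HCT116 and 19917 and 27646 CPM in HEK293T (1.53 ± 0.18 on the TMM scale, −0.15 on the spike-in scale). Its relatives miR-34b and miR-34c, from another locus on chromosome 11, were higher in all 4 tested names by 3.07 to 3.76. MiR-34c-5p, for example, was at 55.1 and 56.2 CPM in HCT116 and 468 and 721 CPM in HEK293T.

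The lines exchanged the products of the copied loci MIR100 and MIR99A. MiR-100-5p (MIR100, chromosome 11, 122152229 to 122152308, intron of MIR100HG), which represses MTOR, had 31416 and 25043 reads in HCT116 and 0 and 2 reads in HEK293T. It was 25019-fold (95% counting interval 6926 to 206598) higher in HCT116. MiR-99a-5p (MIR99A, chromosome 21, 16539089 to 16539169, intron of MIR99AHG), with the same seed and 1 different base, was at 18.9 and 18.5 CPM in HCT116 and 2715 and 2303 CPM in HEK293T, 134-fold higher in HEK293T (log2 difference 7.06 ± 0.24, adjusted p = 5.8e-17). Its partner miR-99a-3p had 0 and 0 reads in HCT116 and 668 and 631 reads in HEK293T, at least 489-fold higher in HEK293T, taking 3 reads over the 2 HCT116 libraries as the limit. Each line thus held mainly 1 name of this pair. The labels do not say how reads that match more than 1 name were counted, and whether the miR-99a-5p reads of HCT116, where miR-99a-3p is at 0, belong to miR-100-5p was not tested.

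The other names of the loci followed the same split where they tell the copies apart. MiR-125b-2-3p, from the chromosome 21 copy, was at 0.755 and 0.598 CPM in HCT116 and 420.5 and 496 CPM in HEK293T (9.29 ± 0.33). MiR-125b-1-3p, from the chromosome 11 copy, is not among the members because the HEK293T files do not list it; in HCT116 it had 266 and 256 reads. Their common 5p partner miR-125b-5p, which both copies make, was at 1970.1 and 1923 CPM in HCT116 and 1550.3 and 1837 CPM in HEK293T. Its difference of −0.20 ± 0.25 on the TMM scale did not pass the test (adjusted p = 0.461); on the spike-in scale it was −1.87. Let-7c-5p (MIRLET7C, chromosome 21, 16539828 to 16539911, intron of MIR99AHG) was at 197 and 222 CPM in HCT116 and 444 and 724 CPM in HEK293T (1.48 ± 0.23 on the TMM scale, −0.21 on the spike-in scale). Let-7c-3p had 0 and 0 reads in HCT116 and 16 and 26 reads in HEK293T, at least 15.8-fold higher in HEK293T.

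**Figure D3:**
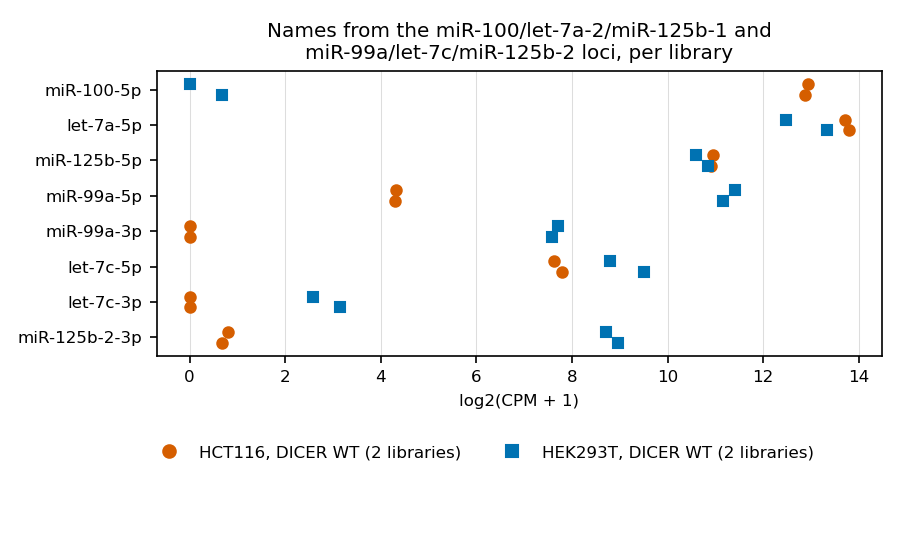
Levels of 8 names from the copied loci as log2(CPM + 1), 1 point per WT library (circles HCT116, squares HEK293T, 2 libraries each). MiR-100-5p is high in HCT116 alone, and miR-99a-5p, miR-99a-3p and miR-125b-2-3p are high in HEK293T. Let-7c-3p has reads in HEK293T alone, at a low level. MiR-125b-5p, which both loci make, lies at a similar level in both lines.

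Let-7c was the exception in its family. The let-7 miRNAs accumulate in differentiated cells and repress LIN28B, HMGA2 and RAS genes. Of 19 tested names 17 were lower in HEK293T and the 2 higher ones were the arms of let-7c (5 of the 19 had under 10 reads in both WT libraries of 1 line), with a family median of −4.08 on the TMM scale and −5.72 on the spike-in scale. Summed, the family stood at 47731 and 50869 CPM in HCT116 and 8407 and 15241 CPM in HEK293T. The members differed by very different amounts: let-7i-5p was at 9871 and 10984 CPM in HCT116 and 75.6 and 114 CPM in HEK293T (−6.78 ± 0.24), let-7d-5p at 3887 and 4161 CPM in HCT116 and 31.7 and 43.7 CPM in HEK293T (−6.74 ± 0.25), and let-7g-5p at 5105 and 5834 CPM in HCT116 and 273 and 459 CPM in HEK293T (−3.90 ± 0.23). Let-7a-5p, made from 3 loci, was at 13444 and 14246 CPM in HCT116 and 5677 and 10279 CPM in HEK293T, 1.74-fold lower (−0.80 ± 0.23, adjusted p = 0.00336). Let-7a-5p made up 29.1% of the reads with the let-7 seed in HCT116 and 68.4% in HEK293T, as a share of the mean levels. The let-7a-5p difference did not pass without HEK293T replicate 1 (−0.49 (adjusted p = 0.0536)) or with upper-quartile factors (−0.37 (adjusted p = 0.0947)). In the cluster of MIRLET7F1 and MIRLET7D on chromosome 9, all 3 names that it alone makes were lower, with log2 differences of −6.74 to −6.95, whereas let-7f-2-3p, from the X-linked copy, was lower by 2.19 ± 0.22 on the log2 scale. How reads were split between near-identical let-7 names is uncertain.

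Some miRNAs were close to absent from 1 line. Among called names with no overlap and a mean of at least 100 CPM over the 4 libraries, 122 were higher and 110 lower in HEK293T, and the 10 largest differences in each direction were taken for a closer description. MiR-130a-3p (MIR130A, chromosome 11, 57641198 to 57641286, intergenic on its strand) had 11685 and 10447 reads in HCT116 and 1 and 2 reads in HEK293T, 6538-fold (95% counting interval 2237 to 31708) higher in HCT116. MiR-335-5p (MIR335, chromosome 7, 130496111 to 130496204, intron of MEST), whose host MEST is imprinted, was at 812 and 1026 CPM in HCT116 and 0.627 and 0.910 CPM in HEK293T (−10.13 ± 0.39), and miR-335-3p had 1285 and 1056 reads in HCT116 and 0 and 3 reads in HEK293T. MiR-135b-5p (MIR135B, chromosome 1, 205448302 to 205448398, intron of LEMD1), which represses APC, was at 2762 and 3153 CPM in HCT116 and 3.45 and 4.25 CPM in HEK293T, 757-fold lower in HEK293T (−9.56 ± 0.29, adjusted p = 9.1e-18). MiR-1915-3p was at 314 and 326 CPM in HCT116 and 1.88 and 0.303 CPM in HEK293T (−8.14 ± 0.36), and let-7i-3p at 597 and 548 CPM in HCT116 and 1.88 and 2.12 CPM in HEK293T (−8.12 ± 0.32). All of these were high in both HCT116 libraries and at a few CPM or less in both HEK293T libraries. The list also holds miR-100-5p, miR-200a-3p, miR-200b-3p and miR-429.

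In the other direction, miR-708-5p (MIR708, chromosome 11, 79402022 to 79402109, intron of TENM4) had 1 and 1 reads in HCT116 and 2257 and 2700 reads in HEK293T, 2797-fold (95% counting interval 774 to 23098) higher in HEK293T. MiR-582-5p (MIR582, chromosome 5, 59703606 to 59703703, intron of PDE4D) had 2 and 0 reads in HCT116 and 746 and 1041 reads in HEK293T, 1008-fold (95% counting interval 279 to 8331) higher. MiR-3144-3p was at 1.26 and 2.39 CPM in HCT116 and 239 and 325 CPM in HEK293T (7.26 ± 0.32), and miR-338-3p (MIR338, chromosome 17, 81125883 to 81125949, intron of AATK) at 2.52 and 2.99 CPM in HCT116 and 199 and 210.2 CPM in HEK293T (6.20 ± 0.32). For these names both HCT116 libraries held few reads and both HEK293T libraries many. The list also holds miR-99a-5p, miR-99a-3p, miR-125b-2-3p and miR-215-5p. MiR-486-5p, which is abundant in red blood cells, was at 82.0 and 20.9 CPM in HCT116 and 6335 and 7699.9 CPM in HEK293T (7.08 ± 0.62), with HCT116 replicate 1 well above replicate 2, and miR-486-3p at 6.29 and 3.89 CPM in HCT116 and 263 and 325 CPM in HEK293T (5.82 ± 0.27). The next names outside these 10 were miR-296-5p (5.46) and let-7d-3p (−6.93).

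The epithelial miR-200 family, which represses ZEB1 and ZEB2, was present in HCT116 and lower in HEK293T, in 7 of 8 tested names with none higher, 3 of the 8 with under 10 reads in both HEK293T libraries but not in HCT116. MiR-200a-3p (MIR200A, chromosome 1, 1167863 to 1167952, intergenic on its strand) was at 2103 and 2323 CPM in HCT116 and 6.27 and 6.67 CPM in HEK293T (−8.41 ± 0.26, adjusted p = 3.7e-17), miR-200b-3p at 2127 and 2310.2 CPM in HCT116 and 10.3 and 5.16 CPM in HEK293T (−8.16 ± 0.30) and miR-429 at 928 and 954 CPM in HCT116 and 1.57 and 0.910 CPM in HEK293T (−9.52 ± 0.34). These come from the cluster on chromosome 1, whose 5 tested names were all lower, with log2 differences of −7.54 to −9.52. The other cluster, MIR200C and MIR141 on chromosome 12, was low in both lines: miR-141-3p was at 70.9 and 71.8 CPM in HCT116 and 21.3 and 23.7 CPM in HEK293T (−1.66 ± 0.23) and miR-200c-3p at 50.1 and 47.3 CPM in HCT116 and 22.6 and 38.5 CPM in HEK293T (−0.67 ± 0.27). MiR-200c-3p did not pass without HCT116 replicate 1 (−0.69 (adjusted p = 0.0541)), HCT116 replicate 2 (−0.62 (adjusted p = 0.0740)) or HEK293T replicate 1 (−0.40 (adjusted p = 0.248)), nor with library totals (−0.43 (adjusted p = 0.146)) or upper-quartile factors (−0.24 (adjusted p = 0.408)). HCT116 thus drew its miR-200 reads mainly from 1 of the 2 clusters. MiR-203a-3p, another epithelial miRNA, was at 1594 and 1743 CPM in HCT116 and 21.0 and 24.9 CPM in HEK293T (−6.18 ± 0.23).

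The sensory cluster of miR-183, miR-96 and miR-182 was lower in 5 of 6 names, but its most abundant HEK293T member was not: miR-182-5p was at 4554 and 4673 CPM in HCT116 and 4493 and 7076 CPM in HEK293T (0.33 ± 0.19, adjusted p = 0.127), while its neighbour miR-183-5p was at 4893 and 4832 CPM in HCT116 and 617 and 460.2 CPM in HEK293T (−3.17 ± 0.19). Without HEK293T replicate 1 miR-182-5p passed as higher (0.56 (adjusted p = 0.0101)), and on the spike-in scale it was at −1.36. The names of the miR-130, miR-301 and miR-454 hairpins, both arms counted, split into 3 higher and 5 lower of 9. MiR-130b-3p was at 730.1 and 789 CPM in HCT116 and 1541 and 1768 CPM in HEK293T (1.12 ± 0.18, spike-in scale −0.55), and miR-301a-3p at 1626 and 1954 CPM in HCT116 and 366 and 373 CPM in HEK293T (−2.28 ± 0.21). Of the 2 miR-130 names, miR-130a-3p was the more abundant in HCT116 and miR-130b-3p in HEK293T.

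Further families had more names higher than lower in HEK293T on the TMM scale. The miR-148 and miR-152 family had 5 of 6 names higher and 1 lower, with a median of 1.82 that is 0.14 on the spike-in scale. Of these, miR-148a-3p was at 1356 and 1439 CPM in HCT116 and 9398 and 10865 CPM in HEK293T (2.86 ± 0.18). The miR-30 family had 7 of 11 higher and 1 lower, with a median of 0.67 that is −0.99 on the spike-in scale. Its most abundant name in HEK293T was miR-30e-5p, at 9854 and 10665 CPM in HCT116 and 12969.6 and 15408 CPM in HEK293T (0.47 ± 0.16, spike-in scale −1.21), a difference that did not pass without HCT116 replicate 1 (0.36 (adjusted p = 0.0961)) or HEK293T replicate 2 (0.38 (adjusted p = 0.0650)). The miR-181 family had 5 of 9 higher and 1 lower, with a median of 0.69 that is −0.98 on the spike-in scale; its main name miR-181a-5p was at 5649 and 4086 CPM in HCT116 and 4940.5 and 6630.1 CPM in HEK293T and did not pass the test (0.25 ± 0.19, adjusted p = 0.238). Of the miR-26 and miR-101 names, 5 of 7 were higher and 2 lower, median 1.03 with TMM and −0.65 with the spike-ins.

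MiRNAs made in unusual ways were measured as well. Mirtrons have hairpins made by splicing in place of DROSHA. Their 14 tested names summed to 810.3 and 496 CPM in HCT116 and 114 and 114 CPM in HEK293T. Of these 14 names, 7 had under 10 reads in both WT libraries of 1 line, so that passing the filter largely fixed their direction. Among the others, miR-877-5p was at 479 and 288 CPM in HCT116 and 68.0 and 66.4 CPM in HEK293T (−2.51 ± 0.24). Hairpins that bypass DROSHA in other ways had 1 higher and none lower of 5, with a median of 0.21 that is −1.44 on the spike-in scale. MiR-320a was at 10157 and 8498 CPM in HCT116 and 6841 and 12666 CPM in HEK293T, and the lines overlapped (adjusted p = 0.785). MiR-451a, which Argonaute cuts without DICER, was at 85.0 and 79.0 CPM in HCT116 and 24.8 and 25.8 CPM in HEK293T, lower in HEK293T (−1.70 ± 0.22). The X-linked CLCN5 cluster had 2 higher and 7 lower of 15 tested names, with a median of −0.30 on the TMM scale and 0.14 with upper-quartile factors. On the spike-in scale its median was −1.96 and all 15 names were called lower. The imprinted DLK1-DIO3 cluster was low in both lines. The 9 tested of its 19 listed names summed to 66.4 and 66.7 CPM in HCT116 and 1.57 and 3.94 CPM in HEK293T. The 3 tested of the 6 listed names of the placental C19MC cluster summed to 52.8 and 56.2 CPM in HCT116 and 1.25 and 0.303 CPM in HEK293T. All 9 and 3 tested names of these clusters had under 10 reads in both HEK293T libraries, so their direction was fixed by the filter and is not read as a result.

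**Figure D4:**
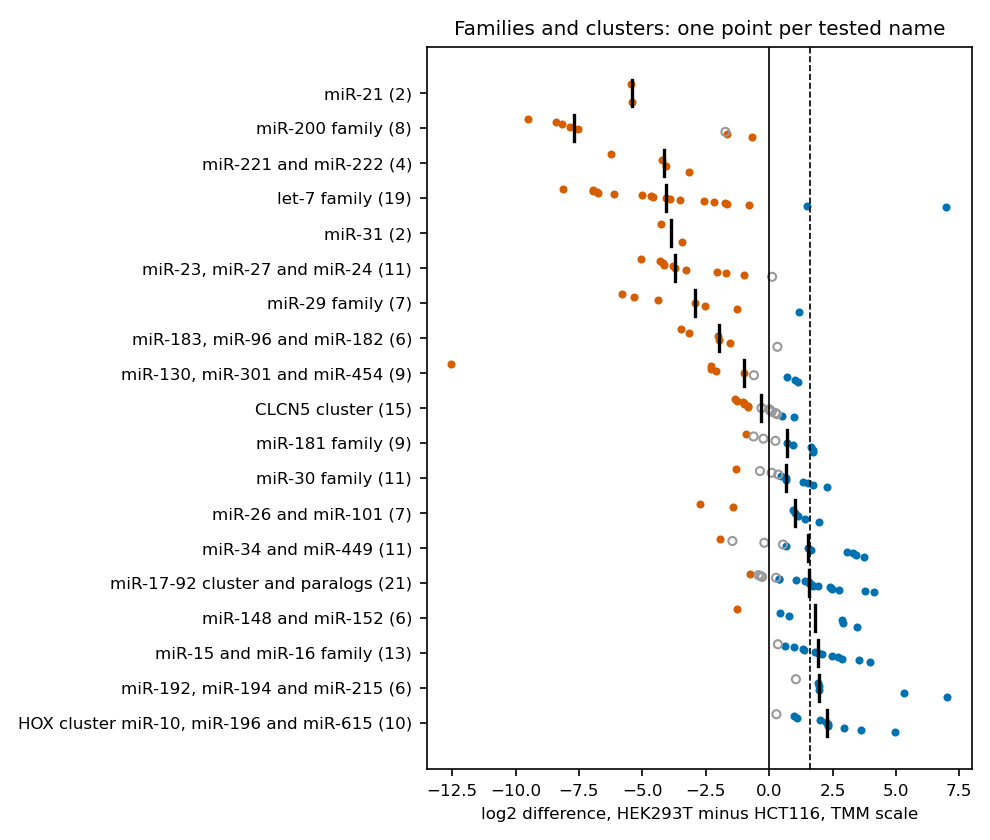
Log2 difference (HEK293T minus HCT116, TMM scale) of every tested name in 19 families and clusters, with the number of tested names in brackets. Filled points passed the edgeR test (blue higher, orange lower in HEK293T), open points did not, short bars are medians, the full line marks 0 and the dashed line the place of 0 on the spike-in scale. Most miR-200, miR-221 and miR-222, let-7, miR-24 and miR-27 names lie to the left of 0 and most HOX, miR-15 and miR-16, and miR-17-92 names to the right of the full line; the let-7 point farthest to the right is let-7c-3p, with 0 reads in HCT116, whose fitted value is no measure of its fold.

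Marker miRNAs were set against the labels. HCT116 held the epithelial markers miR-200a-3p and miR-31-5p, but the intestinal miRNAs miR-192, miR-194 and miR-215 were lower there than in HEK293T: 5 of 6 tested names were higher in HEK293T and none lower, with a median of 1.98 on the TMM scale and 0.31 on the spike-in scale. MiR-192-5p was at 149 and 165 CPM in HCT116 and 571 and 667 CPM in HEK293T (1.98 ± 0.19), miR-194-5p at 271 and 285 CPM in HCT116 and 889 and 1303 CPM in HEK293T (1.98 ± 0.19), and miR-215-5p at 2.52 and 1.20 CPM in HCT116 and 222 and 287 CPM in HEK293T (7.02 ± 0.31). The kidney tubule marker miR-204-5p was at 11.1 and 11.7 CPM in HCT116 and 106 and 119 CPM in HEK293T (3.30 ± 0.26), present in both lines and higher in HEK293T. The 13 tested neural names summed to 3384 and 3134 CPM in HCT116 and 6084 and 8021 CPM in HEK293T, and 6 of the 13 had under 10 reads in both WT libraries of 1 line. Of the 13, 9 were higher in HEK293T, 4 were not called and none was lower. MiR-9-5p was at 850.1 and 1016 CPM in HCT116 and 2999 and 4422 CPM in HEK293T (1.99 ± 0.20). MiR-128-3p was at 2118 and 1680 CPM in HCT116 and 1935 and 2201 CPM in HEK293T. The lines overlapped for it and it did not pass the edgeR test (0.12 ± 0.18, adjusted p = 0.544, spike-in scale −1.52). MiR-138-5p was at 37.5 and 40.4 CPM in HCT116 and 299 and 315 CPM in HEK293T (2.98 ± 0.21). MiR-124-3p, the neuron-defining name, was at 0.252 and 0.898 CPM in HCT116 and 80.0 and 57.9 CPM in HEK293T (6.85 ± 0.40). With 1 and 3 reads in HCT116, it is among the 6 names, so that passing the filter largely fixed its direction.

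Markers of other cell types were measured in both lines. Of 8 tested blood names 3 were higher and 5 lower, but 4 had under 10 reads in both WT libraries of 1 line. They summed to 692 and 622 CPM in HCT116 and 6644 and 8076 CPM in HEK293T, of which miR-486-5p is the main part in HEK293T; miR-223-3p, which defines myeloid cells, had 4 and 10 reads in HCT116 and 1 and 1 reads in HEK293T. MiR-142-3p, which blood cells hold at a high level, was at 413 and 411 CPM in HCT116 and 11.3 and 14.6 CPM in HEK293T (−4.99 ± 0.22). Of 9 tested fibroblast and smooth muscle names 6 were lower in HEK293T and none higher, 3 of the 9 having under 10 reads in both HEK293T libraries but not in HCT116. They summed to 1243 and 1277 CPM in HCT116 and 125 and 176 CPM in HEK293T, mostly miR-145-5p at 979 and 979 CPM in HCT116 and 8.47 and 11.5 CPM in HEK293T. The endothelial miR-126-3p was at 1073 and 1159 CPM in HCT116 and 559 and 558 CPM in HEK293T, the liver miR-122-5p at 4.53 and 2.39 CPM in HCT116 and 0.314 and 0.303 CPM in HEK293T, and the 2 tested muscle names summed to 22.1 and 28.7 CPM in HCT116 and 7.21 and 11.8 CPM in HEK293T. None of the 5 listed names of the pluripotent miR-302 and miR-371 clusters had enough reads to be tested. The part of other cells in any difference was not tested.

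Names of 1 cluster mostly differed the same way. Taking hairpins on 1 strand with gaps of at most 10000 bases, 38 clusters had at least 3 tested names listed at that locus alone. Loci were assigned by name, so a listed name can share reads with another locus. For example, miR-365a-3p in the MIR193B and MIR365A cluster has nearly the counts of miR-365b-3p, from MIR365B on chromosome 17. In 30 of them all called names differed in 1 direction, 1 of which had a single called name, and in 8 both directions occurred. The 30 include the DLK1-DIO3 group from MIR543 to MIR410, with 0 higher and 9 lower, whose direction was fixed by the filter. Other clusters, such as MIR4745 and MIR3187, also hold names with few reads in 1 line, so the 30 are not all free outcomes. Both arms of a hairpin count as names here. Among all tested names 32.0% were higher and 41.2% lower. The range between the highest and lowest name of a cluster was 1.99 on the log2 scale in the median cluster. The widest was the MIR99A and MIRLET7C cluster, whose top value rests on miR-99a-3p with 0 reads in HCT116. MIR545 and MIR374A in FTX followed, from −3.66 for miR-545-5p to 2.17 for miR-374a-3p. The MIR143 and MIR145 pair ran from −6.60 to −1.50. MiR-34b and miR-34c, MIRLET7F1 and MIRLET7D, and MIR192 with MIR194-2 were among the narrowest, with ranges of 0.69, 0.22 and 0.92.

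Some multi-copy miRNAs have partner arms that belong to 1 locus, and these were compared by locus. MiR-26a-5p, made from 2 loci, was at 10721 and 11345 CPM in HCT116 and 19261 and 25800.4 CPM in HEK293T (1.03 ± 0.17; spike-in scale −0.65). Its locus-specific arms went in opposite directions, miR-26a-1-3p at 52.1 and 44.6 CPM in HCT116 and 8.15 and 6.37 CPM in HEK293T (−2.73 ± 0.27) and miR-26a-2-3p at 22.9 and 21.8 CPM in HCT116 and 38.3 and 47.9 CPM in HEK293T (0.94 ± 0.27, spike-in scale −0.71). For miR-30c-5p, which did not pass the test (0.10 ± 0.17, adjusted p = 0.611), miR-30c-1-3p was not called (−0.36 ± 0.24) and miR-30c-2-3p was higher in HEK293T (2.27 ± 0.28). For miR-29b-3p (−4.40 ± 0.33), miR-29b-1-5p went from 2186 ± 16.5 to 39.3 ± 14.8 CPM (mean ± SD, n = 2 each) and miR-29b-2-5p from 62.8 ± 0.438 to 10.9 ± 3.02 CPM. For miR-24-3p, miR-24-1-5p and miR-24-2-5p were both lower, by 4.13 ± 0.26 and 5.06 ± 0.25 on the log2 scale. Such names were taken from all tested names with a locus number, 29 in all.

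Summed by seed, the contrast between the repertoires was of the same kind. Names with a RefSeq sequence cover 91.4% to 93.5% of member reads and form 633 tested seeds, of which 463 differed (73.1%), 202 higher (31.9%) and 261 lower (41.2%) in HEK293T by the same edgeR test. The seed of miR-21-5p took 30.4% and 31.9% of miRNA reads in HCT116 and 0.815% and 0.974% in HEK293T (−5.34 ± 0.18). The seed of miR-221-3p and miR-222-3p took 12.4% and 12.3% of miRNA reads in HCT116 and 1.12% and 1.10% in HEK293T (−3.70 ± 0.14). The let-7 seed took 4.06% and 4.06% of miRNA reads in HCT116 and 0.943% and 1.40% in HEK293T (−2.001 ± 0.20). The seed of miR-92a-3p and miR-25-3p took 1.85% and 1.54% of miRNA reads in HCT116 and 18.3% and 16.8% in HEK293T (3.16 ± 0.14), and that of miR-17-5p and miR-20a-5p took 2.46% and 2.67% of miRNA reads in HCT116 and 10.7% and 10.7% in HEK293T (1.84 ± 0.15). The miR-16-5p seed took 2.46% and 2.45% of miRNA reads in HCT116 and 10.2% and 9.73% in HEK293T (1.80 ± 0.14), and the miR-19 seed 1.12% and 1.27% of miRNA reads in HCT116 and 7.19% and 6.23% in HEK293T (2.26 ± 0.16). Also among the 6 most abundant of a line were the seeds of miR-31-5p (−3.40 ± 0.14), miR-29a-3p (−2.79 ± 0.18), miR-10a-5p (2.98 ± 0.16) and miR-30e-5p (0.62 ± 0.14, spike-in scale −1.09). The 4 largest differences in each direction belonged to seeds with 1 name each, miR-335-5p, miR-135b-5p, miR-335-3p and let-7i-3p lower and miR-582-5p, miR-125b-2-3p, miR-708-5p and miR-3144-3p higher in HEK293T.

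Within a seed the lines drew on different names. Of the levels with the miR-92a-3p seed, miR-92a-3p itself made up 45.3% in HCT116 and 71.7% in HEK293T, and miR-25-3p 43.2% and 26.4%. MiR-222-3p made up 63.3% of its seed in HCT116 and 45.6% in HEK293T, the rest being miR-221-3p. MiR-590-5p, which has the miR-21-5p seed, made up 0.412% of that seed in HCT116 and 4.41% in HEK293T. Names with no sequence in the table, such as miR-10b-5p, miR-130a-3p and miR-30d-5p, are not part of these sums.

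Arm use differed for many pairs of 5p and 3p names, more often toward the 3p arm in HEK293T. The test compares the log2 ratio of 5p to 3p reads between the lines within each library, so the scaling drops out. Arms were paired by name, and the level of the hairpin drops out only where both names come from the same loci. For some pairs, such as miR-181a and miR-101, the loci listed for the 5p and 3p names are not the same, and the listing may be incomplete. In these a difference between loci cannot be told apart from one in arm use. Of 244 pairs with at least 10 reads per arm in 2 libraries, 102 differed (adjusted p under 0.05 in edgeR, 41.8%), 70 toward 3p (28.7%) and 32 toward 5p (13.1%) in HEK293T. Without HEK293T replicate 2 the number toward 5p was 17. The 5p arm was the larger one for 146 pairs in HCT116 and 127 in HEK293T, and the larger arm was the same in both lines for 209 pairs. By group means it differed in 21 called pairs with no overlap, 20 of them 5p in HCT116 and 3p in HEK293T. In 15 of the 20 the switch held in every library, and in 5 it did not (miR-1285, miR-1307, miR-324, miR-545 and miR-548d). MiR-1285, miR-580 and miR-3127 had under 100 reads over the 4 libraries. The pair that went toward 5p was miR-3127, with a 5p share of 18.2% and 55.6% in HCT116 and 66.7% and 75.0% in HEK293T. Its call was lost without HCT116 replicate 1 (0.96 (adjusted p = 0.537)), HEK293T replicate 1 (2.42 (adjusted p = 0.0527)) or HEK293T replicate 2 (1.85 (adjusted p = 0.181)).

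Among these, miR-590 (MIR590, chromosome 7, 74191198 to 74191294, intron of EIF4H) gave a 5p share of 71.2% and 73.5% in HCT116 and 39.7% and 30.9% in HEK293T (−2.27 ± 0.27, adjusted p = 3.0e-08). Its main product was therefore the name with the miR-21-5p seed in HCT116 and the unrelated miR-590-3p in HEK293T. MiR-625, in an intron of FUT8, gave 64.9% and 64.1% in HCT116 and 32.1% and 25.6% in HEK293T (−2.18 ± 0.24). MiR-28, in an intron of LPP, gave 82.9% and 73.2% in HCT116 and 46.8% and 29.4% in HEK293T (−2.59 ± 0.29), and miR-151a gave 70.7% and 72.8% in HCT116 and 49.7% and 41.6% in HEK293T (−1.60 ± 0.22). In each the 5p arm led in both HCT116 libraries and the 3p arm in both HEK293T libraries. MiR-324, whose arms are known to depend on where DICER cuts, gave 61.9% and 64.7% in HCT116 and 49.1% and 50.6% in HEK293T (−0.79 ± 0.24, adjusted p = 0.00745), so that the 2 arms were nearly equal in HEK293T. Without HCT116 replicate 2 it did not pass (−0.71 (adjusted p = 0.0603)).

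The largest differences toward 3p among called pairs of at least 100 CPM included pairs with 1 arm near the counting limit: let-7c and miR-99a had no 3p read in HCT116, and miR-203a no 5p read in HEK293T. The others were miR-101, with a 5p share of 5.55% and 4.58% in HCT116 and 0.678% and 0.396% in HEK293T (−3.35 ± 0.25), miR-1277, with 82.3% and 80.1% in HCT116 and 37.0% and 29.3% in HEK293T (−3.13 ± 0.31), and miR-221, with 2.49% and 4.39% in HCT116 and 0.398% and 0.457% in HEK293T (−2.99 ± 0.24). Toward 5p they were smaller. MiR-769 gave 75.1% and 76.5% in HCT116 and 90.5% and 92.8% in HEK293T (1.83 ± 0.25), miR-186 97.1% and 97.1% in HCT116 and 99.2% and 99.2% in HEK293T (1.90 ± 0.26), and miR-34a 97.6% and 97.1% in HCT116 and 99.2% and 99.2% in HEK293T (1.71 ± 0.22). MiR-182 (1.82 ± 0.29), miR-615 (1.73 ± 0.37) and miR-301b (1.70 ± 0.35) completed the 6 largest. In all 6 the larger arm was the same in both lines and the lines did not overlap.

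**Figure D5:**
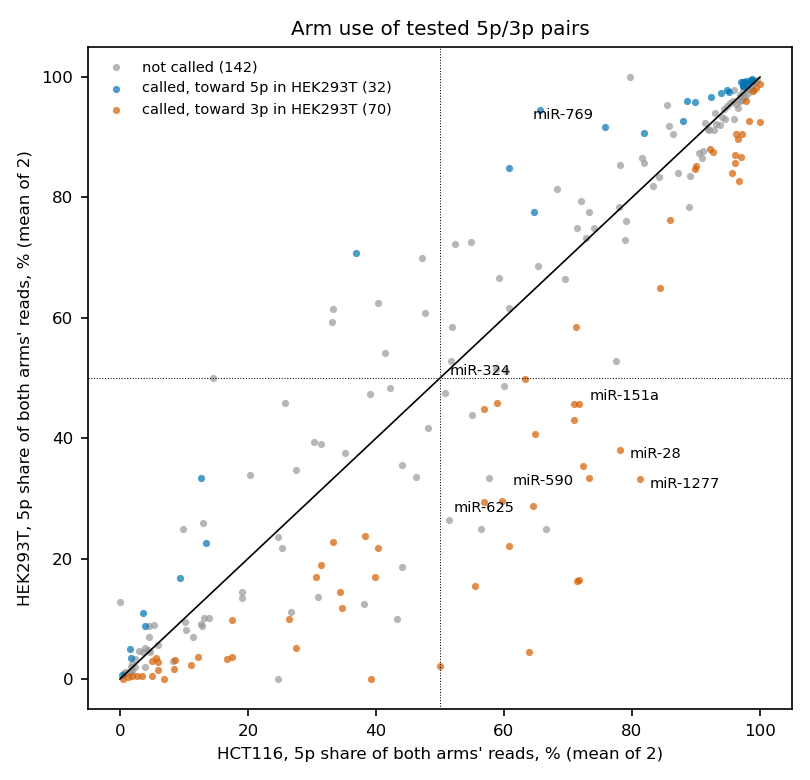
Share of 5p reads among both arms' reads, in percent, for 244 pairs of 5p and 3p names in HCT116 (horizontal) and HEK293T (vertical), means of 2 WT libraries, coloured by the edgeR test of the arm ratio. Points below the diagonal use the 3p arm more in HEK293T, 70 of them called against 32 above it; called points at the lower right, such as miR-590, miR-625 and miR-28, have the 5p arm as the larger one in HCT116 and the 3p arm in HEK293T.

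The 5p and 3p names of a pair nevertheless mostly differed in level in the same direction: of 237 pairs with both arms tested, 189 had differences of the same sign. MiR-101 was an exception by called arms, with miR-101-3p at 3287 and 3766 CPM in HCT116 and 10290.2 and 17094 CPM in HEK293T (1.96 ± 0.21) and miR-101-5p lower in HEK293T (−1.43 ± 0.22). This pair was joined by name. The positions used list only MIR101-2 on chromosome 9 for miR-101-3p and only MIR101-1 on chromosome 1 for miR-101-5p. This listing may leave out loci, so the arms are not shown to come from separate hairpins. Whether the use of these loci differed between the lines was not tested.

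The same difference between the lines was measured in the libraries of the other 2 DICER forms, which share no library with the WT comparison, although all use 1 fit. With AA, 639 of the 844 names differed (75.7%), 275 higher and 364 lower in HEK293T. Of the 618 names called with WT, 89.5% were called in the same direction with AA, which is 86.5% of the AA calls, and 1 was called in the opposite direction, miR-484 (0.78 ± 0.18 with WT on the TMM scale, −0.85 on the spike-in scale, and −1.21 ± 0.22 with AA). With the dsRBD deletion 525 names differed (62.2%), 276 higher and 249 lower, on libraries of lower depth. Of the WT calls 61.7% were called in the same direction with the deletion, 72.6% of the deletion calls, and 39 in the opposite one.

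MiR-21-5p, miR-92a-3p, miR-99a-5p and miR-10b-5p kept their directions in all 3 forms. MiR-21-5p differed by −5.80 ± 0.21 with AA and −8.90 ± 0.25 with the deletion, and miR-92a-3p by 4.19 ± 0.19 and 3.87 ± 0.19. MiR-99a-5p was higher in HEK293T by 7.45 and 9.68, and miR-10b-5p by 5.89 and 3.80. With the deletion the most abundant name of opposite direction was miR-93-5p. With WT it was at 6270.4 and 8201 CPM in HCT116 and 15954 and 22644 CPM in HEK293T (1.42 ± 0.19, spike-in scale −0.29), and with the deletion at 2309.7 and 2278 CPM in HCT116 and 273 and 239 CPM in HEK293T (−3.16 ± 0.20, adjusted p = 3.0e-12). MiR-27b-3p went the other way, −0.99 ± 0.17 with WT and 1.74 ± 0.18 with the deletion. These 2 names were chosen after their values were seen.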

How the data were processed

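Small RNA was sequenced by AQ-seq from total RNA of 12 libraries. The deposited values are raw read counts per mature miRNA name and per spike-in RNA, with no normalization by the authors, 1 library per file. The submitters' processing notes name cutadapt, BWA and bedtools and the builds hg38 and mm10, without versions or roles. How reads that match several names were handled is not stated. In the counts, miR-365a-3p had 3508 and 3001 reads in HCT116 and 2089 and 2424 in HEK293T. MiR-365b-3p had 3508 and 2999 in HCT116 and 2094 and 2425 in HEK293T. Some reads thus appear to be counted under more than 1 name. Sums over names, counts of called names and arm pairs may hold such reads more than once.

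From the counts, names listed in both lines' files were fitted over 12 libraries with 6 group means in edgeR 4.0.16 (R 4.3.3, quasi-likelihood F test, filterByExpr with a minimum count of 10, TMM factors, Benjamini-Hochberg adjustment over all tested features, threshold 0.05). SE is the log2 difference divided by the root of F. CPM uses TMM-scaled library sizes. Seeds sum the counts of names with the same bases 2 to 8, and arms were tested as the interaction of arm and group with a library block. DESeq2 1.42.0 was an alternative, and single values were compared with exact permutation tests in SciPy 1.17.1. Other alternatives were 4 scalings, no low-count filter, WT libraries alone, a replicate block, each library left out, and a test against a 2-fold difference. The scripts were tested on simulated data. An interval or a limit for 0 reads covers counting error only, since reads carry no stated molecular identifier.

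The members, lists and rules were chosen with earlier results of these data known. Named are the 8 most abundant names of each line, the 10 largest differences in each direction (called, no overlap, mean of at least 100 CPM), up to 3 abundant members of a family, the 6 largest arm differences in each direction, and abundant or extreme seeds. Other names (partner arms, locus-specific arms, cluster extremes, markers, pairs with a changed main arm and names of opposite direction in another DICER form) were chosen after their values were seen.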

Additional observations from a re-analysis of the deposited data

Results flagged for a closer look

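Names that only 1 line's files list are outside the comparison but do hold reads. The 360 names listed in HCT116 only took 4640 and 3968 reads in the HCT116 WT libraries, and the 117 listed in HEK293T only took 2055 and 3129 in the HEK293T ones. The largest was miR-584-5p, with 2179 and 1858 reads in HCT116.

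For some names every library pair pointed one way with WT DICER and the other way with another form; the difference between forms was not tested. MiR-125b-5p differed by −0.20 with WT, 0.80 with AA and 3.49 with the dsRBD deletion. MiR-484 went from 0.78 with WT to −1.21 with AA. With the deletion, miR-93-5p was at −3.16 (WT 1.42), miR-93-3p at −1.92 (WT 0.40), miR-16-1-3p at −0.37 (WT 1.33) and miR-26a-5p at −0.40 (WT 1.03). MiR-30c-2-3p was at −0.36 (WT 2.27) and miR-30c-5p at −0.28 (WT 0.10). Of these, miR-16-1-3p and miR-30c-2-3p did not pass the edgeR test with the deletion (adjusted p = 0.120 and 0.373). MiR-125b-5p and miR-30c-5p did not pass it with WT. In the opposite sense, miR-19a-5p was at 1.81 (WT −0.75) and miR-27b-3p at 1.74 (WT −0.99).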

How the results depend on the processing

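With spike-in scaling 85 names were higher and 577 lower in HEK293T with WT, 105 and 566 with AA, and 108 and 477 with the dsRBD deletion, and 54 seeds were higher and 439 lower. With WT this scale moves the median difference by −1.63, since the HCT116 libraries held more miRNA reads per spike-in read. Among the names described in the text those that changed sign with it were let-7c-5p (−0.21), miR-130b-3p (−0.55), miR-16-1-3p (−0.34), miR-17-5p (−0.086), miR-181a-5p (−1.39), miR-182-5p (−1.36), miR-18a-5p (−1.29), miR-196b-5p (−0.70), miR-26a-2-3p (−0.71), miR-26a-5p (−0.65), miR-27b-5p (−1.57), miR-29c-3p (−0.52), miR-30c-5p (−1.56), miR-30e-5p (−1.21), miR-320a (−1.61), miR-34a-5p (−0.15), miR-484 (−0.85), miR-93-3p (−1.24), miR-93-5p (−0.29), and the miR-30e-5p seed (−1.09). MiR-128-3p changed sign with it too (−1.52), and its values with the WT libraries alone or with libraries left out are not given here. Among the same names, miR-125b-5p (0.063) changed sign with library totals, and with upper-quartile factors miR-125b-5p (0.23), miR-30c-1-3p (0.077). With the WT libraries alone these were miR-30c-5p (−0.0037), miR-320a (−0.058). With each WT library left out, miR-27b-5p ranged from −0.087 to 0.38 and miR-320a from −0.40 to 0.38; the cause was not tested. Against a 2-fold difference, 172 names were higher, 8 arm pairs differed toward 5p and 34 toward 3p, a stricter test by construction.

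With each WT library left out in turn, 237 to 271 names were higher and 331 to 336 lower, and arm pairs toward 5p numbered 17 to 32, the fewest without HEK293T replicate 2; the lone library is then assumed to vary like the other groups. Leaving out libraries was added for the repertoire measures after seeing the data, and their directions stayed. The replicate numbers do not pair the libraries: the correlation of same-numbered WT deviations was 0.0918 between the lines, and over all pairs of groups it was −0.0685 to 0.152. A fit with the replicate number as a block gave 266 higher and 345 lower names. Of the named results, miR-93-3p (levels) and miR-3127 (arms) lost their calls under it, and the other calls stayed. At these depths a name with 0 reads in a line is limited to 3 reads, not shown to be absent.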
